A study of Homo sapiens with 6 samples.

Results

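The genes described here encode enzymes and cofactors that start the decay of messenger RNA. They are the decapping genes DCP2, DCP1A, DCP1B, EDC3 and EDC4, the exonuclease gene XRN1, and the deadenylation genes CNOT1, CNOT6, CNOT7 and PAN3, 10 genes of the 58395 in the deposited table. They were listed by their role, around DCP2, which was selected on its counts in these libraries, as a gene clearly higher after depletion of CRP2. Differences of DCP2 between the groups are therefore given as a description, with no test. All 10 genes had enough counts to enter the fit, which covered 23806 genes. RNA was sequenced from MDA-MB-231 cells, an invasive breast adenocarcinoma line, grown in complete DMEM and harvested, by the labels, 65 h after siRNA transfection. The methods of the study give a slightly later time for its siRNA transfections. Cells of the siCTR group received a non-targeting siRNA and cells of the siCRP2 group a siRNA against CSRP2, the gene that encodes the actin-binding protein CRP2, with 3 libraries in each group. A single siRNA, siCRP2#a, stands for the depletion in these libraries, so effects of that siRNA and of the loss of CRP2 cannot be told apart.

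Most cytoplasmic mRNAs are degraded in steps. The poly(A) tail is first shortened, by the PAN2-PAN3 enzyme and by the CCR4-NOT complex, in which CNOT1 is the scaffold and CNOT6, CNOT6L, CNOT7 and CNOT8 are the nucleases. The cap is then removed by DCP2, a Nudix hydrolase that works with its activator DCP1A or DCP1B and the scaffold proteins EDC3 and EDC4, and the uncapped RNA is degraded from its 5' end by XRN1. Many of these proteins gather in cytoplasmic granules called processing bodies, and the same machinery carries out the decay of mRNAs that are silenced by microRNAs.

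Library totals lay between 17336798 and 39115778 counts, so 1 count was worth 0.0256 to 0.0582 CPM (counts scaled to the library total after TMM). The members held 70 to 14025 counts per library. CSRP2 itself checked the labels, with 13.7, 11.7 and 11.4 CPM in the siCTR libraries and 2.17, 1.78 and 1.89 CPM in the siCRP2 libraries. The column names hold the codes 0412, 0611 and 1311, each found once per group, and values below are given in that order. The label of epithelial cells was met by the keratin genes KRT8, KRT18 and KRT19 (297 CPM or more in each library), and the mesenchymal traits of this line by VIM and CD44 (769 CPM or more). EPCAM was less abundant, at 22.2 to 36.6 CPM, and CDH1 (E-cadherin) was higher in siCRP2 cells, with a mean of 33.2 CPM against 17.4 CPM in siCTR cells, and its part in the results was not tested. The leukocyte markers that passed the filter on counts, PTPRC and LYZ, summed to at most 1.75 CPM. The summed endothelial markers reached 9.76 to 22.0 CPM in siCTR and 5.08 to 7.42 CPM in siCRP2 libraries, nearly all of it PECAM1, with CDH5 at 0 to 0.175 CPM, and their part in the results was not tested.

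In control cells the levels of the genes differed by a factor of 12.3 between the most and the least abundant. Levels between genes are compared as RPKM, CPM per kilobase of the canonical transcript. CNOT1 was first with 29.9, 31.9 and 33.0 RPKM, above every other member in every siCTR library. CNOT7 (13.2 ± 0.467 RPKM, mean ± SD, n = 3), CNOT6 (12.9 ± 0.727) and EDC4 (12.0 ± 1.55) followed, and neighbours among these 3 did not differ beyond their spread. PAN3 (9.16 ± 0.884 RPKM) and EDC3 (8.85 ± 0.119) also overlapped with each other and lay below EDC4. The catalytic subunit DCP2 was in the lower part of the order at 6.63, 6.14 and 6.35 RPKM, and its range overlapped with that of its activator DCP1A at 6.32, 6.53 and 5.91 RPKM. XRN1 followed with 4.35, 4.25 and 3.63 RPKM, and DCP1B was last with 2.43, 2.46 and 2.81 RPKM. The lower pair stood apart from each other and from DCP1A in these libraries. Using the union of all exons as the length moved DCP1B further down, to 1.13 RPKM, and CNOT7 from the second place to the fourth.

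**Figure D1:**
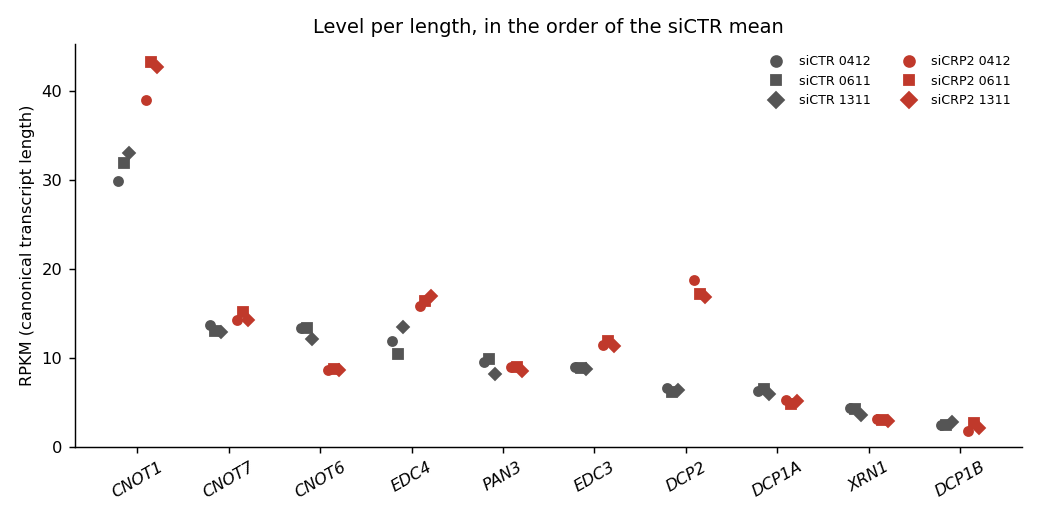
Level per length (RPKM, vertical axis, linear from 0) of the 10 genes in each library, ordered by the siCTR mean. Grey points are siCTR and red points siCRP2 libraries, and the point shape gives the code. DCP2 is seventh in the siCTR order with a mean of 6.37 RPKM and second in the siCRP2 libraries with 17.6 RPKM.

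DCP2, the enzyme that cleaves the cap, was higher in each siCRP2 library than in each siCTR library. It held 189, 174 and 170 CPM in the siCRP2 libraries and 67.1, 62.1 and 64.1 CPM in the siCTR libraries. The fitted ratio was 2.75, 1.46 on the log2 scale (standard error, SE, 0.0849), and within the codes the log2 difference was 1.49, 1.48 and 1.41. These are the values that chose the gene. Of all 23806 genes tested, 912 had a larger log2 fold change, and 28 of these averaged 5 CPM or more. Its level per length went from place 7 of the 10 genes in siCTR to place 2 in siCRP2 cells, with only CNOT1 above it. The gene (ENSG00000172795) lies on the plus strand of chromosome 5 of GRCh38 from 112976702 to 113022195. Its canonical transcript has 10110 bases, of which 8711 are 3' UTR, which is longer than 98.3% of the 14623 3' UTRs of protein-coding genes tested (50 bases or more). It shares 90 exonic bases with MCC on the other strand, a gene with 18.2 CPM in siCTR and 19.5 CPM in siCRP2 cells.

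Neither activator of DCP2 was called higher. DCP1A held 37.4, 38.7 and 35.0 CPM in siCTR and 31.2, 28.8 and 30.5 CPM in siCRP2 libraries, so the groups did not overlap. Its log2 fold change was -0.30 (SE 0.101, adjusted p = 0.042 over all genes in the quasi-likelihood test of edgeR). This call was the least firm among the members, since it was lost in 5 of the 6 fits that left out a library and in the exact test of edgeR (adjusted p = 0.062), whereas with the code as a block adjusted p = 0.0013. The 5 libraries were siCRP2 0412, 0611 and 1311 and siCTR 0412 and 0611, with adjusted p = 0.057, 0.1, 0.083, 0.063 and 0.14 by edgeR without them. DCP1B, the paralogue of DCP1A, was scarce, with 4.94, 5.01 and 5.72 CPM in siCTR and 3.70, 5.44 and 4.20 CPM in siCRP2 libraries. The siCRP2 library of code 0611 lay within the siCTR range, and the log2 fold change of -0.23 did not pass (95% interval -0.64 to 0.18, adjusted p = 0.44 by edgeR). An equal level and a moderate loss of DCP1B are both inside this interval. The ratio of DCP2 to DCP1A in RPKM was 1.05, 0.941 and 1.07 in siCTR libraries and 3.56, 3.54 and 3.27 in siCRP2 libraries.

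EDC3 and EDC4, scaffold proteins that promote decapping, rose modestly in CRP2-depleted cells. EDC3 stood at 33.4, 33.4 and 32.6 CPM in siCTR and at 42.5, 44.5 and 42.2 CPM in siCRP2 libraries. The siCTR libraries differed little from each other, and the rise was 0.38 on the log2 scale (SE 0.0958, adjusted p = 0.0075 by edgeR). It did not pass without siCRP2 library 0611 (adjusted p = 0.063 by edgeR). EDC4 stood at 56.7, 49.8 and 64.5 CPM in siCTR and at 75.5, 78.3 and 80.8 CPM in siCRP2 libraries, with the spread mostly among control libraries. Its rise was 0.46 on the log2 scale (SE 0.0988, adjusted p = 0.0025 by edgeR), and within the codes 0.41, 0.65 and 0.32. EDC3 shares 701 exonic bases with CLK3 on the opposite strand. EDC4 shares 1307 with a non-coding gene on its own strand that held 0.306 CPM in siCTR cells. Which strand setting was used for the counts is not given in the sources used here, so reads of opposite-strand overlaps cannot be assigned with certainty. No strand setting would separate the reads that EDC4 shares with the gene on its own strand.

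**Figure D2:**
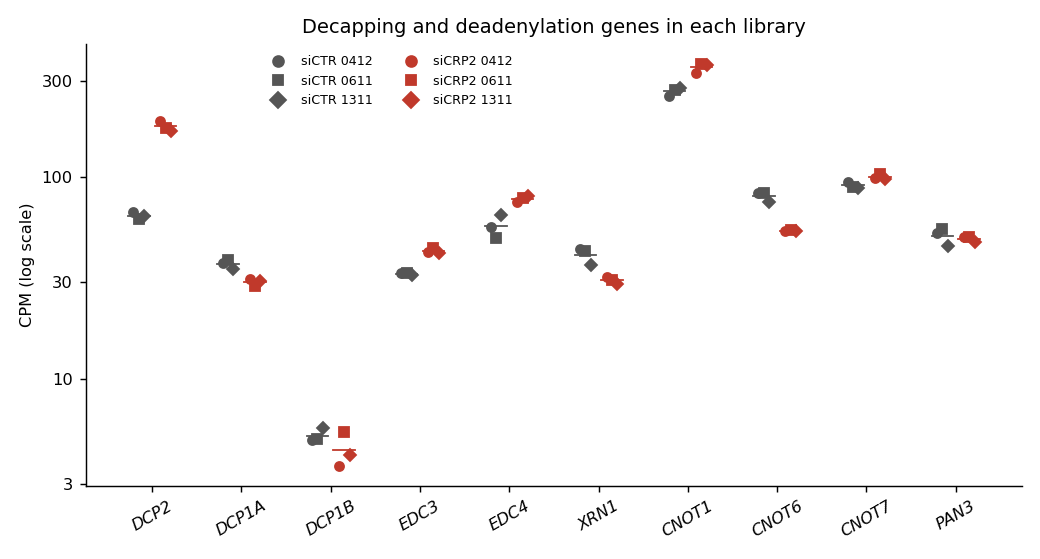
CPM (vertical axis, log scale) of each of the 10 genes in the 3 siCTR (grey) and 3 siCRP2 (red) libraries, with the code as point shape and the group mean as a line. DCP2 shows the widest gap, and the groups overlap for DCP1B and PAN3.

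XRN1, the exonuclease that degrades decapped mRNA, fell in CRP2-depleted cells, opposite in sign to the difference of DCP2. It held 43.9, 42.8 and 36.6 CPM in siCTR and 32.0, 30.7 and 29.4 CPM in siCRP2 libraries. All siCRP2 libraries lay below all siCTR libraries, and the log2 fold change was -0.42 (SE 0.106, adjusted p = 0.0069 by edgeR). Within the codes it was -0.46, -0.48 and -0.31. XRN1 (ENSG00000114127) lies on the minus strand of chromosome 3 from 142306607 to 142448062. XRN2, its nuclear relative, was higher by 0.27 on the log2 scale (212 ± 2.03 to 256 ± 13.7 CPM, mean ± SD of 3 libraries, adjusted p = 0.021 by edgeR). The XRN2 call was lost without siCRP2 library 0611 or 1311 or siCTR library 0611 (adjusted p = 0.17, 0.15 and 0.068 by edgeR).

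The heptamer GCCTCAC had been picked in an earlier analysis for its relation to the fold changes of these libraries, so its presence is a description. It was searched on the sense strand of canonical transcripts in GENCODE, together with the hexamer CCTCAC that lies within it. XRN1 and DCP1A were the only members that held it, and both were called lower. XRN1 held 4 copies, DCP1A 1. The heptamer was in 23.9% of the 14858 transcripts of protein-coding genes tested, in 42.2% of the 930 transcripts within 20% of the length of XRN1, and in 31.6% of the 2597 of about the length of DCP1A. DCP2 held neither the heptamer nor the hexamer in its 10110 bases, while 89.8% of the 924 transcripts of about its length held the hexamer. CNOT6, which also fell, held neither. The sites are shown with 10 bases on each side, from 5' to 3' on the transcript strand, with the heptamer in capitals, because XRN1 and DCP1A hold them and DCP2 does not.
DCP1A 3' UTR, chr3:53287204-53287230 (minus strand): gtagtcaccaGCCTCACagcagaagtt
XRN1 coding sequence, chr3:142400478-142400504 (minus strand): ttgttaattgGCCTCACcttgaggaag
XRN1 coding sequence, chr3:142329583-142329609 (minus strand): atatgaacaaGCCTCACagtgctaatg
XRN1 3' UTR, chr3:142309717-142309743 (minus strand): ttgagaatttGCCTCACtcattactcc
XRN1 3' UTR, chr3:142306707-142306733 (minus strand): catgaagttaGCCTCACgatgctgtgc

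The 3' UTRs of the members were long, 7 of 10 above the median of 1278 bases over the protein-coding genes tested. They also differed in short elements whose binding proteins recruit decay factors, namely ATTTA, the core of AU-rich elements bound by the ZFP36 proteins, and TGTANATA, the element of the Pumilio proteins. DCP2 held 28 copies of ATTTA in its 3' UTR, against a median of 19 for the 345 genes with a 3' UTR within 20% of its length. CNOT7 held 20 (median 12 at its length), CNOT6 17 (median 9), XRN1 14 (median 11), PAN3 11 (median 6) and DCP1A 10 (median 9). EDC3 held none in 2054 bases, while 90.1% of the 3' UTRs of about its length held at least 1. DCP2 and CNOT7 each held 2 copies of TGTANATA and CNOT1 and PAN3 1 each. The element was in 28.6% of the 14623 3' UTRs searched and in 77.4% of those of about the length of that of DCP2. The 3 members called higher held 0 copies of ATTTA (EDC3 and EDC4) or 1 (CNOT1) in the 3' UTR. The medians for 3' UTRs of about their length were 4 for EDC3, 0 for EDC4 and 2 for CNOT1. DCP1B, which did not pass, also held 0, and DCP2, higher as well, held 28.

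Of the members in the CCR4-NOT complex, the scaffold gene CNOT1 rose, the nuclease gene CNOT6 fell and the nuclease gene CNOT7 did not pass. CNOT1, on which the complex is assembled, rose from 251, 269 and 277 CPM in siCTR to 328, 363 and 359 CPM in siCRP2 libraries. The groups were well apart, and the rise was 0.40 on the log2 scale (SE 0.0845, adjusted p = 0.0021 by edgeR). CNOT1 shares 1354 exonic bases with SETD6 on the other strand, a scarce gene that fell from 7.91 to 5.48 CPM. CNOT6, a nuclease of the EEP family related to yeast Ccr4, had the clearest decrease among the members, with 83.1, 83.0 and 75.2 CPM in siCTR and 53.7, 54.7 and 54.0 CPM in siCRP2 libraries. The siCRP2 libraries were nearly equal to each other, and the log2 fold change was -0.57 (SE 0.0862, adjusted p = 0.00011 by edgeR). CNOT7, a nuclease of the DEDD family related to yeast Caf1, held 94.5, 89.3 and 88.6 CPM in siCTR and 98.7, 104 and 97.7 CPM in siCRP2 libraries. Its groups did not overlap, though the log2 fold change of 0.14 did not pass (95% interval -0.03 to 0.31, adjusted p = 0.25 by edgeR, and 0.082 with the code as a block). CNOT7 shares 2057 exonic bases with an antisense RNA gene that is not in the deposited table. In addition, 2 pseudogenes of CNOT7 held at most 3 counts in a library.

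**Figure D3:**
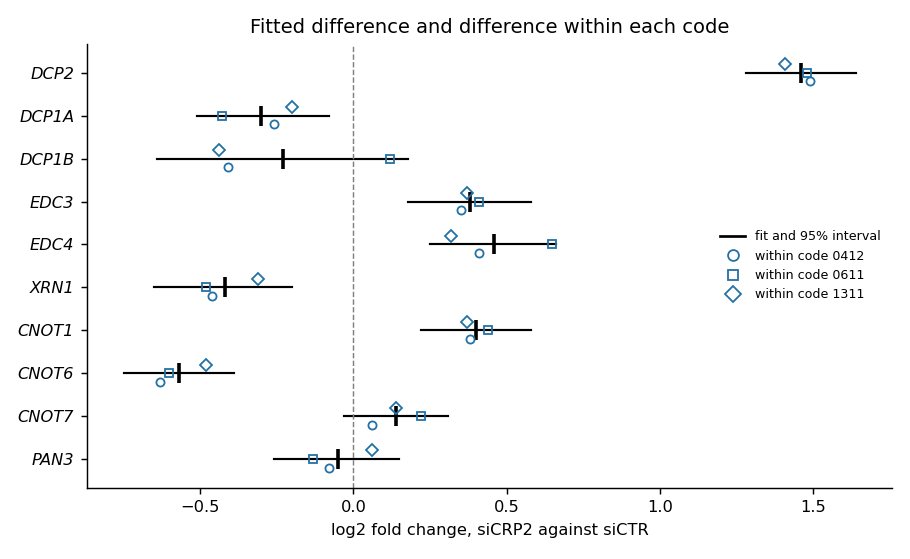
Log2 fold change of siCRP2 against siCTR (horizontal axis) for the 10 genes. The black bar is the fit with its 95% interval, and blue symbols are the differences between the libraries that share a code. DCP2 lies at 1.46, CNOT6 at -0.57, and the intervals of DCP1B, CNOT7 and PAN3 include 0.

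PAN3, the regulatory partner that brings the PAN2 nuclease to poly(A)-binding protein, differed little between the groups. It held 53.0, 55.0 and 45.6 CPM in siCTR and 50.3, 50.2 and 47.7 CPM in siCRP2 libraries. The siCRP2 values lay within the siCTR range, with a log2 fold change of -0.05 (95% interval -0.26 to 0.15, adjusted p = 0.75 by edgeR). Its partner PAN2 rose from 33.6 ± 4.83 to 45.5 ± 4.83 CPM (mean ± SD of 3 libraries, log2 fold change 0.44, adjusted p = 0.012 by edgeR).

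Of the 9 members other than DCP2, 3 were higher and 3 lower (adjusted p under 0.05, edgeR), with 24.0% of all genes tested called, 12.5% higher and 11.5% lower. Among protein-coding genes averaging 5 CPM or more, the shares were larger, 25.9% higher and 18.0% lower. For 7 of the 9 the groups were fully separate, as they were for 37.4% of all genes tested. The median log2 fold change of the 9 was -0.05 and that of all genes tested -0.02. Since the list was built around a gene that differs in this contrast, nothing is read from these counts. Apart from DCP2, the fold changes of the members lay between -0.57 and 0.46 on the log2 scale, each smaller than a 1.5-fold rise or fall.

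Relations between genes with like roles were followed as ratios of RPKM within each library, with pairs chosen after the values were seen. CNOT6 and its paralogue CNOT6L changed in opposite directions, and their levels came closer to each other. CNOT6L rose from 28.6, 27.2 and 18.3 CPM in siCTR to 39.3, 33.9 and 33.8 CPM in siCRP2 libraries (log2 fold change 0.53, adjusted p = 0.020 by edgeR, and 0.075 and 0.056 without siCRP2 library 0412 or 0611). The ratio of CNOT6 to CNOT6L was 4.10, 4.31 and 5.78 in siCTR libraries and 1.93, 2.28 and 2.25 in siCRP2 libraries. The ranges do not overlap, and the two-sided exact permutation test gave p = 0.1, the smallest that 3 against 3 libraries allow. For the other nuclease pair, CNOT7 to CNOT8, the ratio was 0.299, 0.250 and 0.272 in siCTR and 0.243, 0.255 and 0.261 in siCRP2 libraries (exact permutation p = 0.3). The ratio of DCP1A to DCP1B overlapped, with means of 2.45 ± 0.304 and 2.40 ± 0.543 (SD, n = 3 each, exact permutation p = 0.8). The ratio of PAN3 to PAN2 was 1.10, 1.38 and 1.25 in siCTR and 0.815, 1.01 and 0.834 in siCRP2 libraries (exact permutation p = 0.1). Adjusted over these 4 comparisons by Benjamini-Hochberg, the exact permutation p were 0.2, 0.4, 0.8 and 0.2 in the order given, and no pair could pass at 0.05 in this design.

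**Figure D4:**
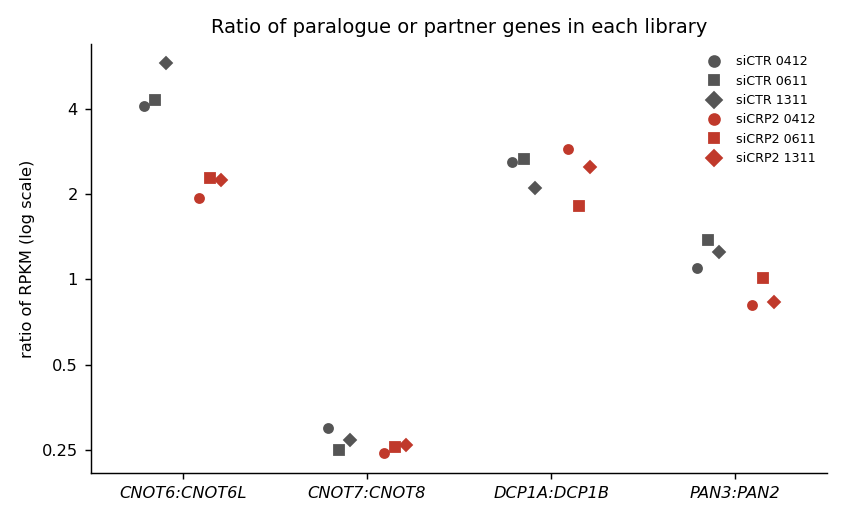
Ratio of RPKM (vertical axis, log scale) between paralogue or partner genes in each library, siCTR in grey and siCRP2 in red, with the code as point shape. CNOT6 to CNOT6L averages 4.73 in siCTR and 2.15 in siCRP2 libraries, and the ranges of CNOT7 to CNOT8 and of DCP1A to DCP1B overlap.

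The other genes of mRNA decay were taken from 8 lists with 80 genes, all of which entered the fit. Of these, 32 were higher and 9 lower (adjusted p under 0.05, edgeR), with a median log2 fold change of 0.24. Among protein-coding genes averaging 5 CPM or more, 25.9% were higher and 18.0% lower, with a median of 0.08. The count of higher genes went down to 18 without siCRP2 library 0611 or 1311 and to 20 without siCTR library 0611. The counts of single lists below stand beside the same shares of 25.9% higher and 18.0% lower. The lists were chosen with earlier results known, so nothing is read from their counts.

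The rest of the CCR4-NOT complex had 4 higher and 0 lower genes of 8 in edgeR. CNOT10, a structural subunit, rose from 26.6 ± 3.94 to 41.2 ± 2.48 CPM (mean ± SD of 3 libraries, log2 fold change 0.63, adjusted p = 0.00072 by edgeR), and CNOT9, which binds the GW182 proteins of microRNA silencing, from 51.2 ± 3.99 to 72.1 ± 1.55 CPM (0.49, adjusted p = 0.00066 by edgeR). CNOT8, the paralogue of CNOT7, passed narrowly at 0.25 (adjusted p = 0.040 by edgeR) and failed in 10 of 12 alternatives. The other 4 did not pass, at -0.16 for CNOT2, -0.07 for CNOT3, 0.18 for CNOT4 and 0.23 for CNOT11. CNOT11 passed only with the code as a block (adjusted p = 0.0047 by edgeR). With the members included, 5 of 11 subunits (45.5%) were higher and 1, CNOT6, was lower. Of protein-coding genes averaging 5 CPM or more, 25.9% were higher and 18.0% lower.

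Among 7 genes of other deadenylases and PAN2, 4 were higher and 0 lower in edgeR. NOCT, the circadian protein Nocturnin of the same nuclease family as CNOT6 and known to act on NADPH, went from 13.4, 11.5 and 18.2 CPM in siCTR to 33.6, 32.8 and 36.6 CPM in siCRP2 libraries. This was the largest fold change in the list, 1.25 on the log2 scale (SE 0.146, adjusted p = 1.3e-05 by edgeR), and the groups were far apart. PARN, the poly(A)-specific ribonuclease, was at 0.60 and PDE12, a mitochondrial deadenylase, at 0.34 on the log2 scale. Both lost the call without siCTR library 0611 (adjusted p = 0.063 for PARN and 0.061 for PDE12 by edgeR), and PDE12 also without siCRP2 library 0611 or 1311 (adjusted p = 0.071 and 0.14 by edgeR).

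**Figure D5:**
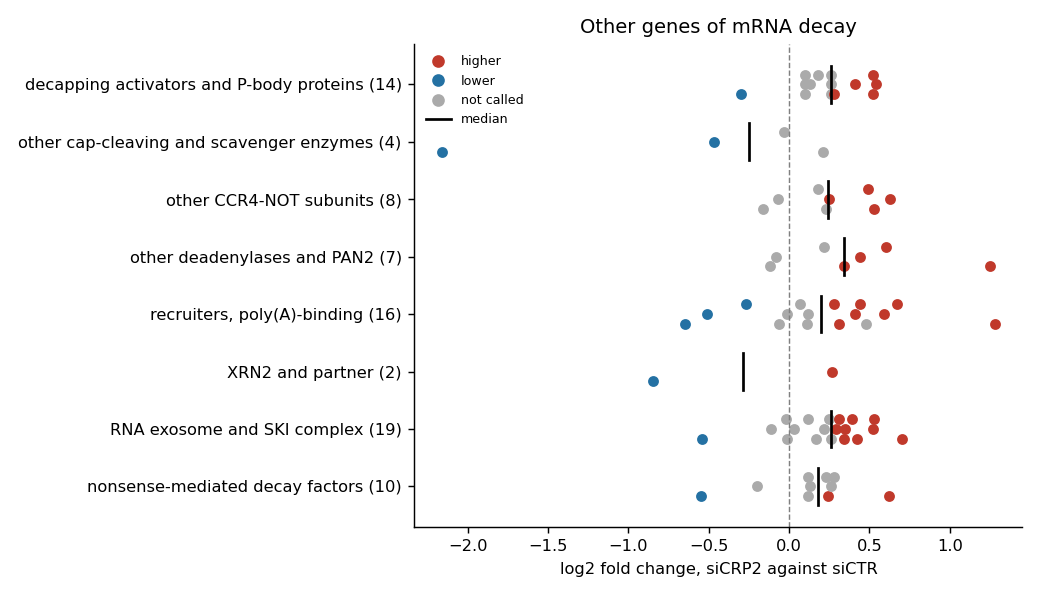
Log2 fold change of siCRP2 against siCTR (horizontal axis) for 80 other genes of mRNA decay in 8 lists, with the number of genes in brackets. Red points are higher and blue points lower (adjusted p under 0.05, edgeR), grey points did not pass, the vertical scatter within a list has no meaning, and black lines are list medians. NUDT3 at -2.16 is the lowest point, and NOCT and NANOS1 at 1.25 and 1.28 are the highest.

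Of 14 decapping activators and proteins of processing bodies, 5 were higher and 1 lower in edgeR. LSM14B, an RNA-binding protein of processing bodies, rose by 0.52 (SE 0.084, adjusted p = 0.0002 by edgeR), LSM3, a subunit of the LSM ring that binds deadenylated 3' ends, by 0.52, and PATL1, which links that ring to the decapping complex, by 0.41 on the log2 scale. PATL1 was abundant, with 210, 205 and 201 CPM in siCTR and 260, 273 and 286 CPM in siCRP2 libraries.

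Of 4 other enzymes that cleave or scavenge caps, 2 were lower and 0 higher in edgeR. NUDT3, a Nudix hydrolase with decapping activity on some mRNAs, fell from 88.2, 74.9 and 58.4 CPM in siCTR to 15.6, 19.2 and 15.0 CPM in siCRP2 libraries. The groups lay far apart, with a log2 fold change of -2.16 (SE 0.155, adjusted p = 2e-06 by edgeR). NUDT3 shares exons with the read-through gene RPS10-NUDT3, which did not pass the filter on counts, and the assignment of shared reads was not tested. Its canonical transcript of 9900 bases held the heptamer once, in the 3' UTR, at chr6:34288141-34288167 on the minus strand, shown here for comparison with the sites of XRN1 and DCP1A.
NUDT3 3' UTR: agaattgagaGCCTCACaattaacata
NUDT16, a Nudix enzyme that can also remove caps, was at -0.47 (adjusted p = 0.0028 by edgeR). NUDT16 did not hold the heptamer. Of the 996 transcripts within 20% of the length of that of NUDT3, 41.9% held the heptamer. Among the other decay genes, 3 of 32 higher (PAN2 among them), 4 of 9 lower and 13 of 39 not called held it. The heptamer had been picked on the fold changes of these libraries, so these counts are a description.

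Of 16 recruiters of deadenylases and poly(A)-binding proteins, 7 were higher and 3 lower in edgeR. NANOS1, a translational repressor that recruits CCR4-NOT, rose from 9.22 ± 2.19 to 22.4 ± 3.40 CPM (mean ± SD of 3 libraries, log2 fold change 1.28, adjusted p = 8.1e-05 by edgeR). PAIP2, an inhibitor of poly(A)-binding protein, rose by 0.67, and TOB2, an antiproliferative protein that brings CCR4-NOT to poly(A)-binding protein, had a log2 fold change of -0.65. The list of the RNA exosome, which degrades RNA from the 3' end, and the SKI complex that feeds it also held related factors. Of its 19 genes, 9 were higher and 1 lower in edgeR. EXOSC9 rose by 0.70 (74.8 ± 4.87 to 121 ± 4.17 CPM, mean ± SD of 3 libraries, adjusted p = 1.4e-05 by edgeR). Within the SKI complex the helicase gene SKIC2 was at -0.54 and SKIC8 at 0.52 on the log2 scale, and both passed. Of 10 factors of nonsense-mediated decay, 2 were higher and 1 lower. UPF3B was at 0.62 on the log2 scale. UPF2, at 0.24, passed only narrowly (adjusted p = 0.048 by edgeR) and lost the call in each alternative but the block. Of XRN2 and CDKN2AIPNL, which binds it, the second fell by 0.85 on the log2 scale.

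The 5 protein-coding genes whose log2 CPM was most like that of DCP2 over the 6 libraries were COIL, BASP1, ENOPH1, PPP3R1 and MKRN2, with Pearson's r of 0.9992 to 0.9983 among 10445 genes of at least 5 CPM. All 5 were higher in siCRP2 cells, by 0.37 to 0.82 on the log2 scale, less than DCP2. With 6 libraries in 2 groups this likeness mostly repeats the difference between the groups.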

How the data were processed

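Raw counts per gene were deposited by the authors, who used STAR on the GRCh38 genome for the alignment and the counting. GRCh38 and hg38 are the builds in the submitters' processing notes. The methods describe a stranded kit and the labels a standard one, and the strand column used is not given in the sources used here. Column names gave the group of each library, and nothing ties their codes to replicate numbers. The members, lists and tests were chosen with earlier results of these data known. A gene was tested if 2 or 3 libraries of either group had counts for it. TMM scaling and the robust quasi-likelihood test of edgeR (version 4.0.16, R 4.3.3) were used, with Benjamini-Hochberg adjustment over all 23806 genes. The call was an adjusted p under 0.05. Standard errors and 95% intervals follow from the F statistic of each gene. The replicates are separate libraries, and p-values measure the spread between them. In bulk RNA a change per cell and a change in the share of cells cannot be told apart. GENCODE release 44 gave symbols, transcripts and coordinates for 57754 of the 58395 genes. Named were the members, CSRP2, up to 3 called genes with the smallest p in each list, subunits needed to count a complex in full and the 5 genes most like DCP2. PAN2 was also named, as the partner of PAN3, and was not among the named genes counted under the alternatives. Single values of a few listed genes are not reported here. Deviations from the group means correlated at 0.700, 0.423 and 0.706 for libraries sharing a code and at most 0.111 otherwise (12038 genes), so the codes were also used as a block. Counts were also simulated for this comparison over 22699 genes. In these counts, 93 of 100 genes changed by 1 and 100 of 100 changed by 2 on the log2 scale passed. The changed genes were taken from those averaging 1 CPM or more. The simulated spread between libraries followed a trend over the level of the genes and was not set gene by gene. Of the unchanged genes, 8 of 22499 passed. Smaller changes, such as those of the members other than DCP2, were not simulated, nor was the likeness of libraries sharing a code. Alternatives were DESeq2 (version 1.42.0), its size factors, edgeR's exact test, other filters, the block and leaving out each library.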

Additional observations from a re-analysis of the deposited data

How the results depend on the processing

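The counts of 3 higher and 3 lower members other than DCP2 were 2 or 3 in all 12 alternatives, with 2 to 3 higher and 2 to 3 lower when a library was left out. DCP2 stayed within its spread in each. Among the 80 other decay genes, leaving out a library gave 18 to 32 higher (32 with all) and 6 to 8 lower genes (9 with all). DESeq2, its size factors, the exact test and the other filters gave 27 to 29 higher and 8 to 10 lower genes. The code as a replicate block gave 45 and 10. Over all genes the replicate block called 4644 higher and 4229 lower genes, against 2987 and 2735 without it. Apart from CNOT11, it changed no call of a gene named from the members or the lists. CSRP2 stayed lower in every alternative. The value of PAN3, which did not pass, was -0.13 to 0.00 when a library was left out, with a change of sign before rounding without siCTR library 0611. With the union of all exons as length, the ratio of the highest to the lowest member in siCTR cells was 21.6 in place of 12.3, with 4610 bases for DCP1B in place of 2033, and it was 12.0 to 12.6 when a library was left out. Of 432 values for 36 named genes other than DCP2 under the 12 alternatives, 37 lost the call, 1 gained it and 393 kept direction and side of the threshold. Scaling moved the median of all genes by less than 0.1 on the log2 scale. At 70 to 164 counts per library, DCP1B could be followed only coarsely.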
